A study of Bos indicus with 9 samples.

Results

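Chromatin opened in skeletal muscle was set beside chromatin opened in liver over the 29 autosomes of Brahman cattle. The comparison rests on 28554 muscle peaks, of 40104 in the deposited muscle list, and on 10465 liver peaks, of 22291 in the deposited liver list. These are all peaks on chromosomes 1 to 29 that started at or beyond position 1000000. Peaks on other sequences (10606 in muscle, 10932 in liver) and in the first 1 Mb of an autosome (944 in muscle, 894 in liver) were left out. A peak is a stretch of genome in which the transposase of ATAC-seq cut more often than its surroundings. The 6 samples, of 9 in the series, were 3 muscle and 3 liver samples from the same 3 heifers. The study describes them as unrelated, past puberty and of similar age and weight, and it names no treatment. All 3 heifers of a tissue went into 1 combined list, so no value exists for a single animal, no test between tissues was possible, and no p-value is given. Neither tissue was sorted into cell types, and neither list gives read counts. The study's mapping statistics were not used here, so no depth is given behind a peak.

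Open chromatin marks promoters, which most cells share, and enhancers, most of which are used by few cell types. Skeletal muscle fibres are multinucleate cells that transcribe a small set of very large sarcomere genes, among them titin, at high rates. Hepatocytes secrete most plasma proteins and handle amino acids, bile acids and purines, and the liver also holds resident and passing leukocytes. Muscle tissue in turn holds blood vessels, nerve and connective tissue cells.

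The strength of a peak is given here as its deposited area under the curve (AUC) of combined −log10 p, and as the −log10 p at its summit. Neither was scaled between the lists, so peaks were compared by their percentile within their own list. The lowest AUC was 200.01 in muscle and 200.035 in liver. A place without a peak may thus still hold signal below that floor. Coordinates are on the cattle build ARS-UCD1.2.

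Most liver peaks were also muscle peaks, and most muscle peaks were not liver peaks. Of the liver peaks 9156 of 10465 overlapped a muscle peak by 1 bp or more (87.5%, Wilson 95% interval 86.8 to 88.1, counting error only), which left 1309 liver-only peaks. Of the muscle peaks 8862 of 28554 overlapped a liver peak (31.04%, 30.5 to 31.6), which left 19692 muscle-only peaks. Muscle peaks covered 18.8 Mb with a median width of 523 bp, and liver peaks covered 5.93 Mb with a median width of 490 bp. The unshared peaks made up 55.4% of the sequence that muscle peaks covered and 41.7% of the summed muscle AUC. In liver they made up 9.21% of the covered sequence and 4.74% of the summed AUC.

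Unshared peaks were the narrower and weaker ones in both tissues. Muscle-only peaks had a median width of 437 bp and a median AUC percentile of 37.5, with quartiles at 18.4 and 58.2. Shared muscle peaks had a median width of 836 bp and a median percentile of 80.0, with quartiles at 62.6 and 91.1. Liver-only peaks had a median width of 363 bp and a median percentile of 18.4, against 508 bp and 55.7 for shared liver peaks. The quartile ranges of liver-only peaks (8.52 to 32.1) and of shared liver peaks (31.1 to 78.0) barely overlapped. The share of muscle peaks that had a liver partner went from 5.95% in the weakest decile of AUC (170 of 2855) to 86.5% in the strongest (2470 of 2855). The share of liver peaks with a muscle partner went from 63.7% (666 of 1046) to 99.7% (1044 of 1047).

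**Figure D1:**
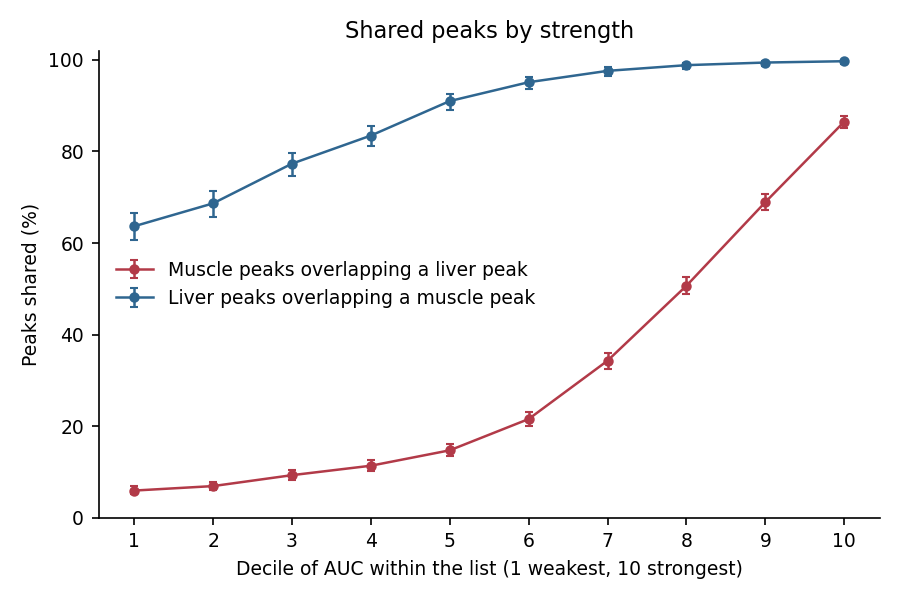
Percent of peaks that overlapped a peak of the other tissue (vertical axis) by decile of AUC within the list (horizontal axis, weakest to strongest), for muscle in red and liver in blue. Points are shares and bars are Wilson 95% intervals. The liver line runs from 63.7% to 99.7%, and the muscle line stands at 34.3% in decile 7 before it reaches 86.5%.

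The lists differ in length, so the same number of peaks was also kept from both, ranked by summit. With 10465 peaks in each, which set the lowest muscle summit at a −log10 p of 5.97 against 2.81 in liver, 62.8% of muscle peaks and 66.0% of liver peaks were shared. With the top 5000 the shares were 68.1% and 69.3%, with the top 2500 they were 65.1% and 65.8%, and with the top 100 they fell to 38.0% in both. The strongest peaks of one tissue were thus often not among the strongest of the other, although the top 1000 were nearly all present in its full list. The full muscle list held 4924 of the top 5000 liver peaks and each of the top 1000. The full liver list held 4169 of the top 5000 muscle peaks and 987 of the top 1000. Among the top 5000, 831 muscle peaks had no liver partner at all and 76 liver peaks had no muscle partner.

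Liver-only peaks lay closer to peaks of the other tissue than muscle-only peaks did. The median distance from a liver-only peak to the nearest muscle peak was 11.4 kb, with quartiles at 2.48 and 38.8 kb. From a muscle-only peak to the nearest liver peak it was 46.1 kb, with quartiles at 12.9 and 137 kb. The muscle list is the denser one, so the 2 distances are not on an equal footing. More than 100 kb separated 6292 muscle-only peaks (32.0%) from any liver peak, and 138 liver-only peaks (10.5%) from any muscle peak.

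By the study's labels, muscle-only peaks lay mostly outside promoters. The study's own labels of genomic position could be read in both lists for chromosome 1 and for chromosome 2 up to position 72596708, a stretch with 1771 muscle peaks, 1769 of them labelled, and 553 liver peaks, all labelled. A promoter there means within 3 kb of a gene start. Promoters took 14.6% of muscle-only peaks (190 of 1305, interval 12.7 to 16.6) against 61.4% of shared muscle peaks (285 of 464, 56.9 to 65.7). Gene bodies took 26.8% of muscle-only peaks (350 of 1305) against 4.31% of shared ones (20 of 464). Only 5.41% of muscle peaks in gene bodies had a liver partner, against 285 of 475 at promoters and 17.2% of those outside genes. In liver, promoters took 31.3% of liver-only peaks (21 of 67, 21.5 to 43.2) against 61.9% of shared peaks (301 of 486, 57.5 to 66.1). These intervals cover counting error within 1 list each and are no test between tissues. The labels also depend on which genes the study's annotation holds. TTN, the titin gene, was not named in it, and the interval between CCDC141 and PLEKHA3 on this stretch held 112 muscle-only peaks. How far missing genes shift the shares of promoters and gene bodies was not tested.

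On the same stretch 589 genes were named as nearest to a muscle or liver peak. A gene start was called open where a peak overlapped the 3 kb on either side of it. Starts of 299 genes were open in both tissues (50.8%), 126 were open in muscle only (21.4%), 15 in liver only (2.55%) and 149 in neither. Starts open in both tissues carried strong peaks, with a median AUC percentile of 85.9 in muscle and 65.5 in liver. Starts open in muscle only had a median percentile of 49.7, and those open in liver only 29.3. With equal numbers of peaks the counts turned around, to 34 starts in muscle only, 50 in liver only and 264 in both, so which tissue had more starts to itself depends on the length of the lists. Only the muscle list was cut for this, so the 15 starts open in liver only had to remain so and starts in muscle could only be lost. Of the 126 in muscle 34 remained, and 92 were then open in neither. Genes enter this count because a peak lay near them, so the shares describe these named genes and not all genes.

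The 15 starts open in liver only are named in full, after their values were seen, and their order here is not a test of any shared role. MX1, an antiviral GTPase induced by interferon, had the strongest peak, with an AUC of 746, a percentile of 66.8 and a summit of 5.44. PARP9 and PARP14, ADP-ribosyltransferase family members that respond to interferon, had peaks at percentiles of 56.3 and 20.5. IFNAR2, a subunit of the type I interferon receptor, stood at 45.6, and TNFSF10, the death ligand TRAIL, at 18.9. These genes differ widely in strength, and in each the muscle list held no peak within 3 kb of the start. ITGA4 and ITGB2, integrin subunits of leukocytes, stood at 52.4 and 0.970, and LY75, an endocytic receptor of dendritic cells, at 15.0. FTCD, a liver enzyme of histidine breakdown, had 2 peaks, the stronger at 50.3. SLC51A, a subunit of a bile acid transporter, stood at 36.9. The others were IGSF5 at 37.8, GPR39 at 29.3, RBM43 at 27.9, ZDHHC19 at 14.4 and MIS18A at 6.20. Within 1 kb of the start 13 of the 15 were still open in liver only, and SLC51A and ZDHHC19 were open in neither tissue. Around PARP9 and PARP14, 5 liver peaks followed each other over 86.8 kb (chr1:66988022-67074800) with no muscle peak between them, the strongest at a percentile of 56.3.

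Among the 126 starts open in muscle only, the strongest peaks were those of RAB5A, an early endosome GTPase, at a percentile of 96.0, BIN1, which shapes the T-tubules of muscle fibres, at 93.8, ACTRT3 at 93.5 and SH3BGR at 91.1. The peaks of RAB5A and ACTRT3 were in fact shared, since each overlapped a liver peak that lay beyond the 3 kb limit, and that of ACTRT3 also lay at the start of MYNN, which was open in both tissues. These 2 are the only starts of the 126 whose strongest peak was shared. The genes in this paragraph were named after their values were seen. They include MBNL1, a splicing regulator of muscle, at 72.8, POPDC2, a membrane protein of striated muscle, at 66.0, and GYG1, which primes glycogen synthesis, at 55.9. With equal numbers of peaks GYG1 was open in neither tissue. The 126 also held APP at 71.0, CBS at 50.1, DLX1 at 43.1 and MASP1 at 36.7. The genes named for a role in muscle thus do not stand for the whole set. All of these percentiles are below those of the strongest shared starts, which reached 99.8 in muscle.

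Lists of genes with known roles in muscle and liver were examined next. Only a minority of their members had a position in the sources used here, 9 of 150 in the 4 muscle lists and 23 of 154 in the 3 liver lists. Many of these positions come from tables of liver peaks, so the counts describe the genes named and not the lists. Of the 9 muscle genes, 6 were open at the start in muscle only, 2 in both and 1 in neither. With equal numbers of peaks 3 were open in muscle only. DES, the intermediate filament of muscle, had 4 muscle peaks at its start, the strongest at a percentile of 88.9 with an AUC of 2483, and no liver peak. SGCA, of the sarcoglycan complex, stood at 79.0, KLHL41, which stabilises the sarcomere, at 68.7, and the tropomyosin gene TPM3 at 28.4, all in muscle only. CHRNA1, a subunit of the acetylcholine receptor of the neuromuscular junction, stood at 49.9, and VGLL3, a cofactor of TEAD transcription factors, at 63.3, again in muscle only. PDK4, which restrains glucose oxidation, was open in both, at 98.3 in muscle and 63.0 in liver. The transcription factor gene MEF2D was open in both, at 96.5 in muscle and 80.5 in liver. MSTN, the growth inhibitor myostatin, had no peak at its start in either list. On the stretch of chromosomes 1 and 2 described above, 3 of 4 members were open in muscle only, beside 21.4% of all genes named there.

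The liver genes divided differently. Of 23 with a position, 5 were open in liver only, 4 in both, 2 in muscle only and 12 in neither. The 5 were FGG, the fibrinogen gamma chain, with 2 liver peaks at its start and the stronger at a percentile of 16.8, ITIH1, a plasma inter-alpha-trypsin inhibitor chain, at 38.8, IGFBP1, a binding protein of insulin-like growth factors, at 24.4, AGXT, a peroxisomal aminotransferase, at 25.4, and AMBP, the precursor of alpha-1-microglobulin, at 15.9. All 5 stood below the median of the liver list. APOA2, an apolipoprotein of high-density lipoprotein, was open in both, at 79.2 in liver and 79.9 in muscle, values of peaks that lie more than 1 kb from its start. AOX1, aldehyde oxidase, was open in both, at 16.5 in liver and 39.0 in muscle. The transcription factor gene CEBPB was open in both, at 94.6 in liver and 99.2 in muscle, and KLF15 at 19.4 in liver and 94.5 in muscle. The KLF15 values are also those of peaks more than 1 kb from its start. Within 1 kb of the start APOA2 and KLF15 were open in liver only, which brings that count from 5 to 7. The liver peaks behind these 2 calls were weak, at percentiles of 20.7 for APOA2 and 7.20 for KLF15. SLC10A1, the bile acid importer of hepatocytes, had 1 muscle peak at 36.1 and no liver peak at its start, and NFIA 1 muscle peak at 65.0. On the stretch of chromosomes 1 and 2, none of 6 members was open in liver only, beside 2.55% of all genes there. All 6 were in neither, beside 25.3% of all genes there.

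Housekeeping genes and markers of other cells were looked at in the same way. All 14 housekeeping genes with a position were open in both tissues, beside 50.8% of the genes named on the stretch of chromosomes 1 and 2, where 2 of the 14 lie. Many positions come from tables of peaks, among them the study's regions open in all its tissues. A gene could thus have a position because it was already open in both. The 50.8% rests on genes named in the muscle and liver tables only, so the count of 14 is no check of the lists. Examples were HNRNPA2B1 at 98.0 in liver and 99.4 in muscle, NCL at 93.9 and 96.6, ACTB at 90.4 and 99.8, and YWHAZ at 87.2 and 94.1. Of 39 HOX genes 3 had a position. HOXD10 had a muscle peak at its start at a percentile of 33.5, while HOXD4 and HOXB1 had no peak there in either tissue. HOXD genes were nearest to 6 muscle peaks, all of them muscle-only and the strongest at a percentile of 94.9, and to 0 liver peaks, on a stretch where 73.8% of labelled muscle peaks were muscle-only. Of the markers of other cell types only ERG, of endothelium, and S100B, of Schwann cells, had a position. Both were open in muscle only, at 23.1 and 57.5, beside 21.4% of all genes named on that stretch. With equal numbers of peaks both were open in neither tissue, and ERG was so within 1 kb of its start too. The other markers of endothelium, smooth muscle, fibroblasts, fat, leukocytes and bile duct were not analysed here, so the cell makeup of the tissues could not be read from them. Fewer cells of a type and less open chromatin per cell cannot be told apart in these samples. Of 20 further genes fixed by name, which include ACTA1, CKM, MYH7, RYR1, ALB, APOB, HNF4A and PCK1, only MYOG had a position, and it lies in the first 1 Mb of its chromosome, so the other 19 were not analysed here by position.

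The strongest muscle-only peak was also one of the widest and lay in an interval with a muscle filamin gene. It spanned 20826 bp at chr4:92794140-92814965 with an AUC of 48672, the 8th largest of the muscle list, and a summit of 9.99. It lies between CALU and ATP6V1F, an interval in which the RefSeq annotation of the Tharparkar assembly places OPN1SW, CCDC136 and FLNC, the filamin C of striated muscle. Muscle peaks covered 49.6% of this 85.1 kb interval, with 12 peaks, 11 of them muscle-only. Liver had 1 peak of 360 bp there, at a percentile of 41.3. The other 4 of the 5 strongest muscle-only peaks were chr21:69195283-69204601 with an AUC of 15501, chr29:49534178-49541496 with 12363, chr2:18337070-18343004 with 11971 and chr29:49591695-49597796 with 11449. The last 4 were between 5935 and 9319 bp wide. Both chromosome 29 peaks lie between CD81 and PNPLA2, where the same RefSeq order places 36 genes, among them IGF2 and the fast troponin genes TNNT3 and TNNI2. The chromosome 21 peak had no gene of known position beside it.

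The interval that holds a giant sarcomere gene carried many muscle-only peaks, most of them weak. Between CCDC141 and PLEKHA3 (chr2:18020632-18388296), where RefSeq order places TTN, the titin gene, as the one gene with a symbol, there were 112 muscle peaks and 0 liver peaks. The peaks covered 29.5% of 368 kb. Of these peaks 6 stood at or above a percentile of 90, and the median was 26.4.

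Runs of this kind were common in muscle and rare in liver. Between neighbouring liver peaks there were 450 stretches with 10 or more muscle-only peaks and between neighbouring muscle peaks there was 1 stretch with 10 or more liver-only peaks, of 5129 and 1057 stretches in all. The longest muscle run, of 133 peaks at chr2:16925030-18343004, ended with the titin interval. Other long runs were 55 peaks over 246 kb at chr28:9168228-9414229, with no gene of known position nearby, and 51 peaks over 1376 kb between IGFBP5 and ARPC2 at chr2:104764481-106139977. The liver list has fewer peaks to interrupt a run, which lengthens muscle runs whatever the tissue.

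Of the 5 strongest liver-only peaks, 2 followed a fibrinogen gene and 1 lay in a gene of purine breakdown. The strongest was chr18:50134877-50138475, 3599 bp wide with an AUC of 4022, the 84th of the liver list. The next was chr17:2848814-2850251 with an AUC of 2352 and a percentile of 97.4, which begins 0.491 kb beyond the end of FGG. The third was chr7:68206528-68208102, inside HAVCR1, a receptor of T cells and epithelia, with an AUC of 2273. The fourth, chr17:2893543-2894737 with 1346, again follows FGG, at 45.2 kb, and in RefSeq order the next named genes on that side of FGG are FGA and FGB, which encode the other fibrinogen chains. The fifth, chr3:59706835-59707456 with 1212, lies inside UOX, urate oxidase of liver peroxisomes. In ranks these 5 peaks fell from the 84th to the 1607th place of the liver list, whereas the 5 muscle-only peaks took places between 8 and 46. They were drawn from 1309 liver-only and 19692 muscle-only peaks of lists of unlike length, so the ranks are not on an equal footing. Around FGG there were 9 liver peaks in a row over 66.0 kb (chr17:2828747-2894737) with no muscle peak between them, and their median percentile was 20.3.

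**Figure D2:**
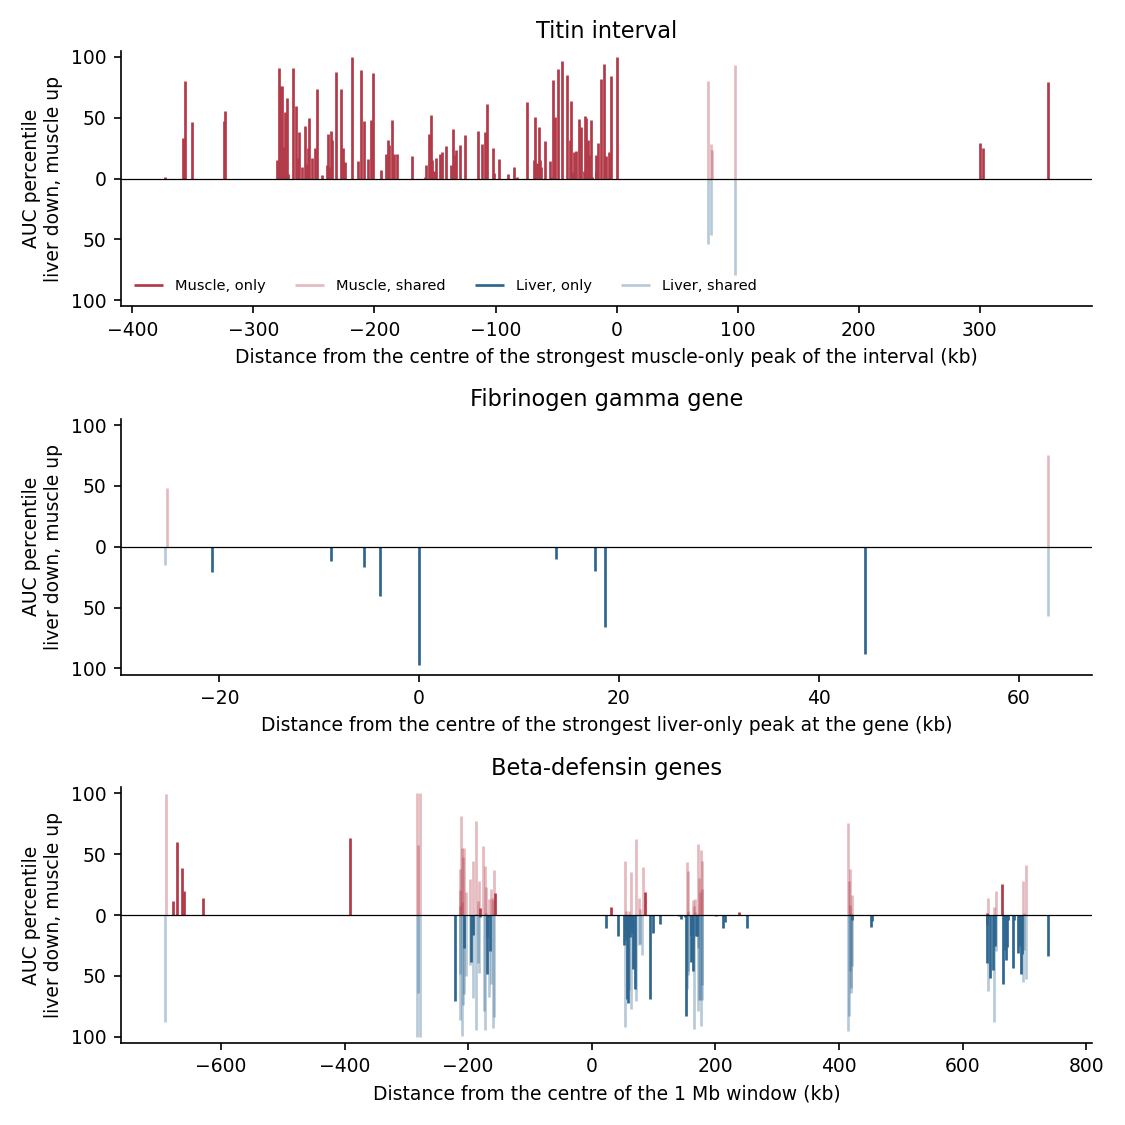
Peaks at the titin interval, at the fibrinogen gamma gene and at the beta-defensin genes, by distance in kb (horizontal axis) and AUC percentile within the list (vertical axis, muscle up in red, liver down in blue). Dark lines are peaks of 1 tissue only and pale lines are shared peaks. The titin panel holds 122 muscle-only and 0 liver-only peaks, the fibrinogen panel 9 liver-only and 0 muscle-only peaks, and the beta-defensin panel 60 liver-only and 13 muscle-only peaks.

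Peaks that matched one to one were compared by rank. Of 9242 overlaps, 8352 joined 1 muscle peak to 1 liver peak. Their summits lay a median of 32 bp apart, and 82.4% lay within 100 bp. The muscle peak was the wider one in 87.6% of pairs, with a median width of 823 bp against 509 bp. The percentiles went together with a Pearson r of 0.63 and a Spearman rho of 0.71 over the 8352 pairs, given as a description of pairs that share position and width. The muscle percentile exceeded the liver percentile by a median of 16.2 points. It was at least 50 points higher in 818 pairs (9.79%), and the liver percentile was at least 50 points higher in 17 pairs (0.204%).

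A percentile also counts the unshared peaks ranked below a pair, and the muscle list has more of them, so the lean was computed in other ways too. When percentiles were taken among the pairs alone, the median difference was −0.49 points, a value near 0 by construction since both tissues then have the same set of percentiles, with 197 pairs at least 50 points higher in muscle and 155 in liver. Of the 818 pairs 196 stayed past 50 points, and of the 17 pairs all 17 did. With equal numbers of peaks the median difference was −3.89, with 121 pairs higher in muscle and 175 in liver.

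The 5 pairs that leaned most to muscle kept their lean among the pairs alone, with differences from 78.8 to 94.4 points. At chr29:42476248-42478632 the muscle peak had an AUC of 5848 at a percentile of 99.1, while the liver peak beneath it was 314 bp wide with an AUC of 219 at 5.05. At chr7:81248226-81249787 the percentiles were 98.0 and 4.65, and at chr11:24464309-24465624 they were 92.9 and 1.81. At chr19:26982813-26984177 they were 97.3 and 6.22. That pair lies 10.6 kb from CLDN7, and in RefSeq order the gene after CLDN7 is SLC2A4, the insulin-responsive glucose transporter GLUT4 of muscle and fat. At chr19:51050295-51051597 the percentiles were 92.5 and 1.86. In all 5 a narrow liver peak of 222 to 314 bp lay within a muscle peak of 1303 to 2385 bp.

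The 5 pairs that leaned most to liver included a pair of beta-defensin sites, genes of small antimicrobial peptides. At chr27:7149669-7151598, between DEFB5 and EBD, the liver peak stood at 87.7 and the muscle peak at 6.56. At chr27:6919524-6920393, which overlaps DEFB6, they stood at 63.7 and 1.78. The others were chr14:13828457-13829717 at 74.6 and 1.64, chr23:26727009-26728212 at 73.9 and 2.11 and chr29:25638821-25640148 at 68.2 and 4.77. Positions here are those of the liver peaks, which were 870 to 1930 bp wide with summits between 3.52 and 3.86. Of all 17 pairs that leaned to liver, 6 lay on chromosome 27, which held 114 of the 8352 pairs.

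**Figure D3:**
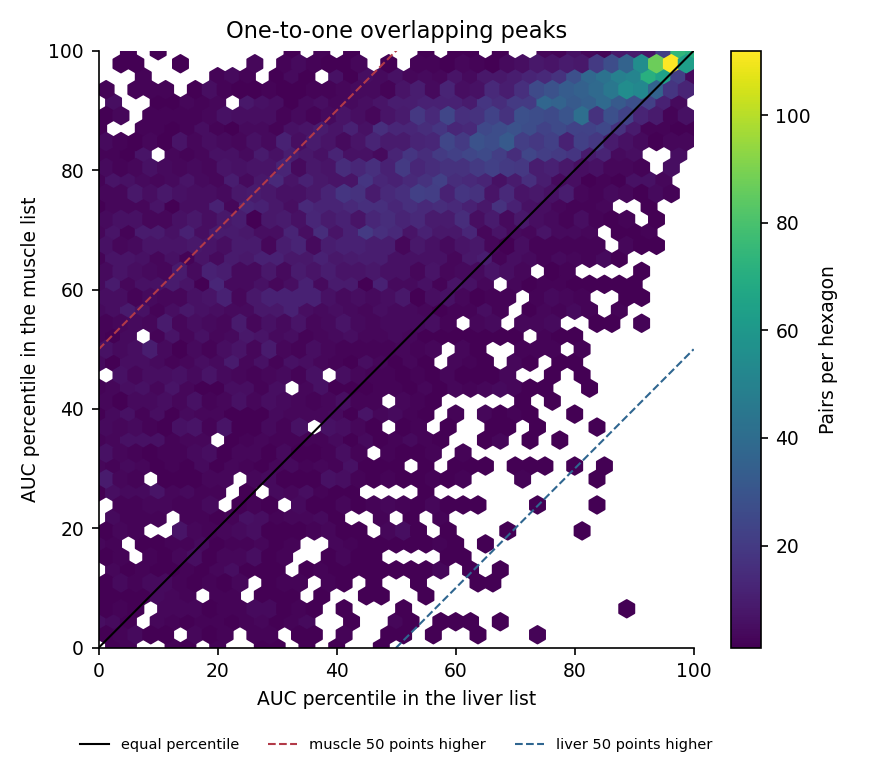
AUC percentile in the muscle list (vertical axis) against that in the liver list (horizontal axis) for the 8352 one-to-one pairs, with colour for the number of pairs in a hexagon. The black line marks equal percentiles and the dashed lines a difference of 50 points. Pairs crowd at the upper right, 818 lie on or above the upper dashed line and 17 on or below the lower one.

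The pairs strongest in both tissues had almost the same outline in both. At chr21:32903624-32937056 the muscle peak was 33433 bp wide and the liver peak 33425 bp, with an AUC of 166783 and 186135, the largest in each list. The other 4 of the top 5 were chr6:5432945-5462105, chr2:121566471-121576313, chr27:6219467-6226226 and chr21:33010446-33024470. In these 5 pairs the edges differed by 17 bp at most. The chromosome 2 region holds MIR2887-1, and the chromosome 27 region lies 1.86 kb from MIR2887-2. Over all pairs both edges agreed within 10 bp in only 256 (3.07%), whose median percentile was 51.3 in muscle and 55.6 in liver. Reads with several possible positions were counted in part at each of them, and their part in these regions was not tested.

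By chromosome, muscle had between 2.22 peaks per liver peak on chromosome 18 and 3.90 on chromosome 28, beside 2.73 over all autosomes. With equal numbers of peaks the ratio ran from 0.697 on chromosome 27 to 1.29 on chromosome 28. Chromosome 28 also had the lowest share of muscle peaks with a liver partner, 22.1% (interval 19.04 to 25.4), with 505 of its 648 muscle peaks muscle-only. Chromosome 27 stood apart in liver. Of its 195 liver peaks 68 were liver-only, so that 65.1% were shared (interval 58.2 to 71.5), while the other autosomes ranged from 81.3% to 91.1%. It held 1.86% of liver peaks and 5.19% of liver-only peaks. Without the window from 6 to 7 Mb, which holds many of the beta-defensin genes but neither DEFB5 nor EBD, 76.1% of its liver peaks were shared.

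**Figure D4:**
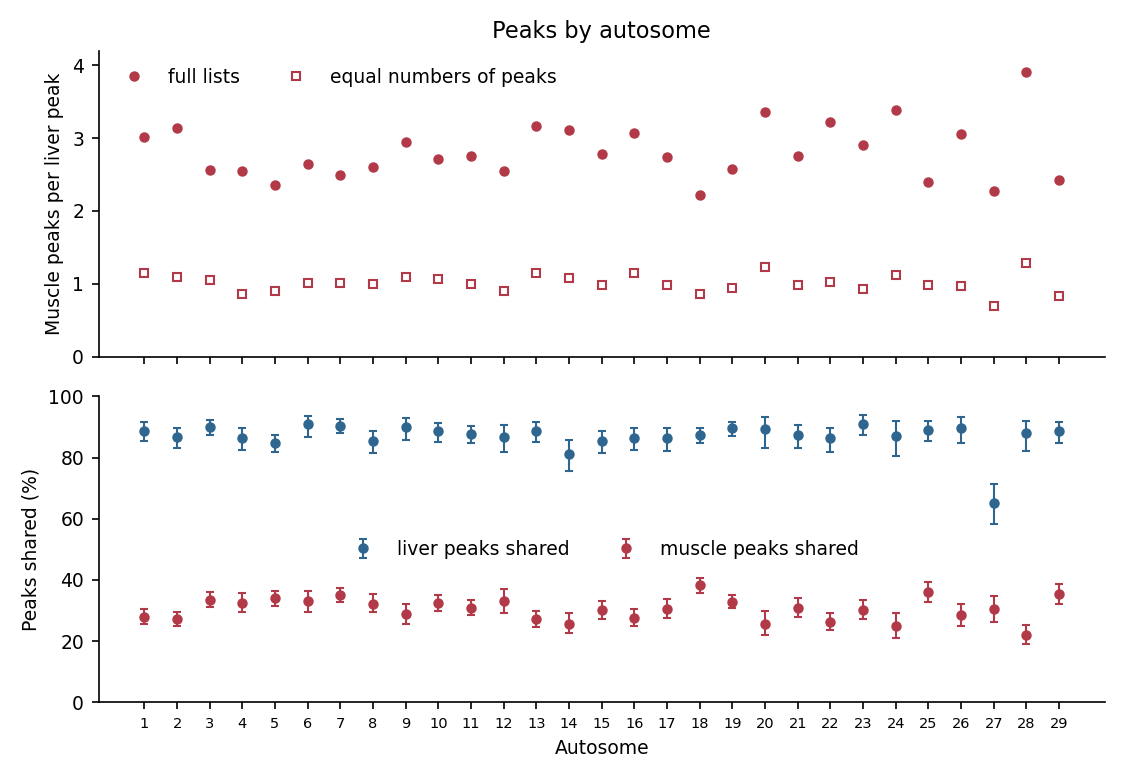
Upper panel, muscle peaks per liver peak on each autosome in the full lists (filled) and with equal numbers of peaks (open). Lower panel, percent of liver (blue) and muscle (red) peaks shared, with Wilson 95% intervals. Chromosome 27, at 65.1% of liver peaks shared, lies below the other autosomes, which start at 81.3%.

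Counts in windows of 1 Mb went together between tissues. Over 2083 windows with a peak in either list, Pearson r was 0.78 and Spearman rho 0.76 in the full lists, and 0.80 and 0.82 with equal numbers, as a description of windows that share gene density. No liver peak lay in 309 windows, 35 of which held 10 or more muscle peaks, and no muscle peak lay in 21 windows, none with more than 4 liver peaks. The window with the most muscle peaks was the titin window on chromosome 2, from 18 to 19 Mb, with 123 muscle peaks, 119 of them muscle-only, and 3 liver peaks. Only 9 of its muscle peaks were among the strongest 10465. It was named after its values were seen.

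The largest excess of liver peaks in a window, with equal numbers of peaks in both lists, was at the beta-defensin genes. On chromosome 27 from 6 to 7 Mb, where the named genes were DEFB1, DEFB3, DEFB6, DEFB10 and DEFB13 among others, there were 86 liver peaks, 42 of them liver-only. The full muscle list had 61 peaks there, but only 3 among its strongest 10465. The median summit was 3.87 in liver and 3.72 in muscle, both low. A little further on, 12 liver peaks followed each other over 30.6 kb at EBD, a further beta-defensin gene (chr27:7165206-7195792), with no muscle peak between them. The next windows were chromosome 18 from 57 to 58 Mb, with 55 liver peaks and 10 of the strongest muscle peaks, and chromosome 4 from 105 to 106 Mb, with 40 and 2. The full muscle list held 58 and 36 peaks in them. Liver peaks thus did not outnumber those of the full muscle list on chromosome 18, and did so by few on chromosome 4. Over all autosomes the full lists held 2.73 muscle peaks per liver peak. The genes with a symbol named there were CTU1, MIR99B and SSBP1. The windows that follow were named after their values were seen. On chromosome 12 from 72 to 73 Mb, where CLDN10 was named, there were 32 liver peaks and 0 of the strongest muscle peaks, with 25 in the full muscle list. On chromosome 14 from 13 to 14 Mb, where LRATD2 and MIR2310 were named, there were 28 and 0, with 24 in the full list. At the WC1 genes, co-receptors of gamma delta T cells (chromosome 5 from 102 to 103 Mb) there were 23 liver peaks, 13 of them liver-only, and 0 of the strongest muscle peaks, with 13 in the full list. Over all autosomes 1309 of 10465 liver peaks were liver-only. The median liver summit in the windows of chromosomes 12, 14 and 5 was 3.55, 3.50 and 3.52, lower still than at the beta-defensin genes. At KIR3DL2, KIR3DS1 and NCR1, receptors of natural killer cells (chromosome 18 from 62 to 63 Mb), there were 37 liver peaks and 15 of the strongest muscle peaks, with 37 in the full list. At CEACAM1 and DMAC2 (chromosome 18 from 50 to 51 Mb), the window of the strongest liver-only peak, there were 44 and 12, with 47 in the full list. Beta-defensin, WC1 and KIR genes belong to families of similar copies, and the part of reads with several positions in these peaks was not tested.

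The largest excess of muscle peaks with equal numbers was smaller, at 16, 14 and 13 peaks. It was found on chromosome 11 from 86 to 87 Mb, with 19 of the strongest muscle peaks and 3 liver peaks, on chromosome 25 from 34 to 35 Mb, with 27 and 13, and on chromosome 19 from 8 to 9 Mb, with 16 and 3. In all, 3 windows had a difference of 13, and the first by position is given. In these 3 windows no liver peak was liver-only, while 38, 52 and 39 peaks were muscle-only in the full list. No gene was named in them in the sources used here. An excess of 10 or more peaks was seen for liver in 24 windows and for muscle in 9. That count sets the whole liver list, with summits down to 2.81, against muscle peaks with summits of 5.97 or more. Windows of many weak peaks could thus lose muscle peaks but no liver peaks.

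**Figure D5:**
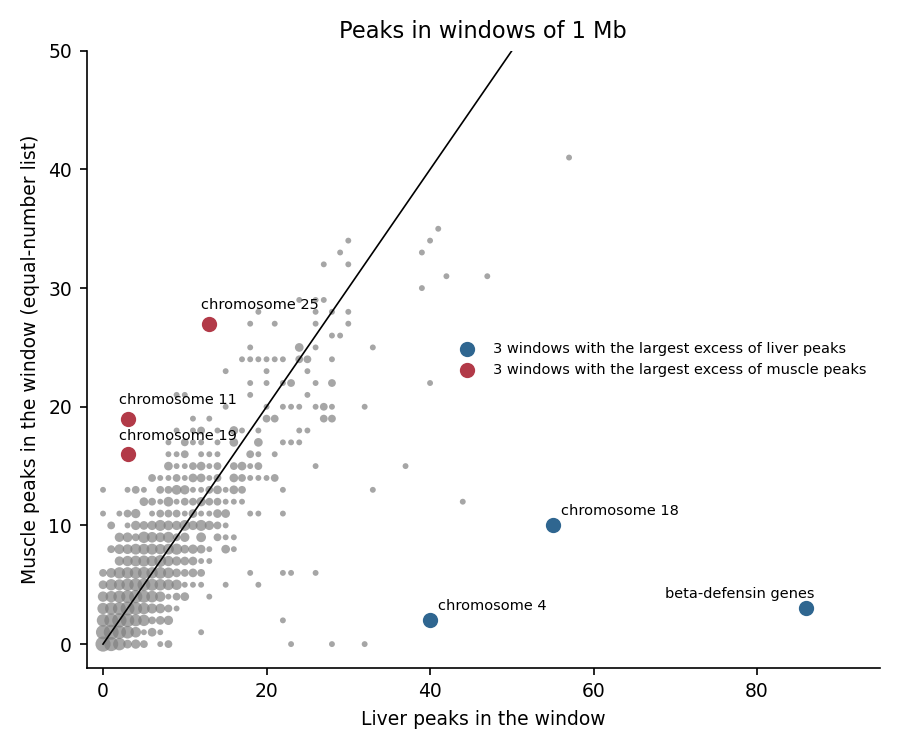
Muscle peaks of the equal-number list (vertical axis) against liver peaks (horizontal axis) in windows of 1 Mb, each point a combination of counts with its size set by the number of windows. The black line marks equal counts. The beta-defensin window lies at 86 liver and 3 muscle peaks, and the muscle window farthest above the line at 3 liver and 19 muscle peaks.

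Single peaks of one tissue were at times cut into several in the other. Among muscle peaks 353 overlapped 2 or more liver peaks, and among liver peaks 79 overlapped 2 or more muscle peaks. The most divided were the muscle peaks chr29:43606792-43618708, at a percentile of 99.95, and chr9:87053489-87058652, at 98.4, with 5 liver peaks each. The liver peak chr27:6664091-6667690, at 93.7 and next to the beta-defensin genes, overlapped 4 muscle peaks.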

How the data were processed

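ATAC-seq libraries of 3 muscle and 3 liver samples were analysed from 1 deposited peak list per tissue. Per the study's methods, the authors aligned reads with HISAT2, keeping several positions per read, and called peaks with Genrich 0.6.1 on ARS-UCD1.2 (names and build from the submitters' processing notes), removing PCR duplicates and combining the heifers by Fisher's method. The deposited signal is the AUC of each peak, and the deposited −log10 p is that of its summit, which the authors combined over heifers and thresholded without adjustment. Starts were counted from 0 in the files and are printed from 1.

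Overlaps of at least 1 bp were computed with pandas 2.3.3 (python 3.11.15, numpy 2.4.6), intervals with scipy 1.17.1, and overlaps were checked against bedtools 2.31.1. Plots used matplotlib 3.10.9. Tested on simulated lists, 3 of 3 planted counts were recovered. Shares have Wilson 95% intervals. Pairs were called at 50 percentile points. No genome or annotation of the files' build was used, so gene names and promoter labels are those of the study's peak annotation, and neighbours are from RefSeq on NIAB-ARS_B.indTharparkar_mat_pri_1.0, which is another assembly and gave names and order only. No sequence is given for this reason, and no motif search was run.

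Named were up to 4 genes per list with the highest percentile at the start, 20 fixed genes, the 5 strongest unshared peaks per tissue, the 5 pairs with the largest difference each way, the 5 strongest pairs and the 3 windows with the largest difference each way. The lists, members and rule were chosen with earlier results of these data known. A further interval with a run of muscle peaks is not reported here.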

Additional observations from a re-analysis of the deposited data

How the results depend on the processing

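Of 78 recalculations 44 kept their value, 32 moved and 2 changed sign, where a share had to stay within its Wilson interval and any other value within 1.5 times. Keeping summits of at least 5 left 15174 muscle and 3920 liver peaks, of which 24.9% and 97.2% were shared. The shared percentages of muscle and liver were 34.2% and 89.3% within 1 kb, 62.8% and 66.0% with equal numbers by summit, 63.0% and 66.4% by AUC, 68.1% and 69.3% for the top 5000, and 65.1% and 65.8% for the top 2500. With the first 1 Mb included 32.6% of muscle peaks were shared. The median difference of pairs became −0.49 among the pairs alone and −3.89 with equal numbers. Pairs called for muscle numbered 197 among the pairs alone, 121 with equal numbers and 2923 at 25 points. Those for liver numbered 155, 175 and 180, and 44 by AUC per bp. On chromosome 27, 33.3% of liver peaks were shared with equal numbers and 76.1% without the window from 6 to 7 Mb. With equal numbers, gene starts open in muscle only, liver only and neither were 34, 50 and 241, muscle list members open in muscle only were 3, and promoters took 66.9% of shared muscle, 16.6% of muscle-only and 67.2% of shared liver peaks. Over gene bodies with 5 kb on both sides 8 liver list members were open in liver only. Ranking by AUC in the windows, the first 1 Mb in counts and widths, and chromosome 27 without its window were chosen after seeing the data.

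No paired analysis was possible because the heifers were combined before the lists were made, and leaving out a heifer could not be run for the same reason. Sequence content and a full annotation of peaks were not run. The depth of the libraries was not used here, and whether the shorter liver list reflects tissue, depth or library quality was not tested.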
